A study of Mus musculus with 12 samples.

Results

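The immunity-related GTPases (IRG proteins) described here are the products of 7 mouse genes, taken by name from a table of 16283 genes. Iigp1, Tgtp1, Tgtp2 and Ifi47 are the effector members, and Igtp, Irgm1 and Irgm2 are the regulatory members. The split follows the nucleotide-binding motif of the mouse proteins, which reads GKS in effector members and GMS in regulatory members. All 7 were listed in the table and all 7 passed the filter on low counts, 4 effector and 3 regulatory. RNA was sequenced from 12 libraries of 4T1, a cell line from a mammary tumour of a BALB/c mouse that is much used to model metastatic breast cancer. The libraries form 6 groups of 2. Cells carried the Cebpd guide sgRNA2, the Cebpd guide sgRNA1, or a guide to the Rosa26 locus, which serves as a harmless target, and those cells are called control here. Each was cultured with IFN-gamma at 20 ng/ml for 24 hours or with vehicle. All 3 lines are edited 4T1 cells, both Cebpd guides are labelled as Cebpd knockout, and the labels do not say whether a line is 1 clone or a pool. The series asks how transcription, and its response to IFN-gamma, differ without Cebpd, which encodes the transcription factor C/EBPδ.

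IFN-gamma made by T cells and natural killer cells induces the IRG genes in mouse cells through its receptor, JAK kinases and transcription factors such as IRF1. Effector members gather on the vacuoles in which Toxoplasma gondii and Chlamydia trachomatis grow, bind GTP there and take part in breaking the vacuole membrane. Regulatory members sit on the cell's own membranes and hold effector members in the inactive, GDP-bound state, so the balance of the classes matters for where effector proteins become active. Iigp1 is also called Irga6, Tgtp1 and Tgtp2 are the Irgb6 genes, Ifi47 is Irgd, and Igtp is Irgm3. Most work on these proteins was done in infected mouse fibroblasts and macrophages, not in carcinoma cells.

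In GRCm38, the build that the labels name as mm10, 6 of the 7 genes lie on chromosome 11. Irgm1 (48861968 to 48871683, minus strand), Tgtp1 (48985327 to 48994172, minus), Tgtp2 (49057194 to 49064206, minus) and Ifi47 (49076587 to 49096974, plus) stand in 1 cluster. Tgtp1 and Tgtp2 are 63021 bases apart, and Tgtp2 and Ifi47 12380 bases. Igtp (58199556 to 58207591, plus) and Irgm2 (58199618 to 58222782, plus) follow 9102581 bases further on and overlap on the same strand, with 162 shared exon bases. Tgtp1 and Tgtp2 are near-identical copies. Of the 50-base stretches of their transcripts, 79.4% of those of Tgtp1 were found in Tgtp2 and 85.8% of those of Tgtp2 in Tgtp1. For Igtp, 11.8% were found in Irgm2, and for the other members at most 7.77% were shared with any gene. The values of Tgtp1 and Tgtp2 taken singly are therefore uncertain, since nothing used here says how reads that match both were counted.

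The promoter stretches of the 6 genes on chromosome 11 are shown because 5 of them hold a motif through which IFN-gamma is known to act, while Ifi47 is shown as the one that holds none. They come from RefSeq start-site windows of 250 bases before to 50 after 1 annotated start per gene, on GRCm38.p6. Among the 7 members, results are given for these 6 only, and none is given for Iigp1. Each stretch is given 5′ to 3′ on the gene's own strand. That of Irgm1 lies wholly within annotated Irgm1 exons and is cut to 30 bases for that reason. Those of Tgtp1 and Irgm2 lie inside their own annotated genes but outside exons. Capitals mark a gamma-activated site (GAS, searched as TTCNNNGAA, the same on both strands) or an interferon-stimulated response element (ISRE, searched as GAAA, any 2 bases and again GAAA on both strands, the motif of IRF factors).
Tgtp1, chr11:48992289-48992368, minus: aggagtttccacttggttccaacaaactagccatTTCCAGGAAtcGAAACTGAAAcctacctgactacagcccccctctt
Tgtp2, chr11:49064248-49064327, minus: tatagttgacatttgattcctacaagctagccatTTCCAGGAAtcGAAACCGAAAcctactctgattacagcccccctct
Ifi47, chr11:49076482-49076561, plus: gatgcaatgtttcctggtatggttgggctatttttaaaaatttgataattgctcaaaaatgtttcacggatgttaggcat
Igtp, chr11:58199477-58199556, plus: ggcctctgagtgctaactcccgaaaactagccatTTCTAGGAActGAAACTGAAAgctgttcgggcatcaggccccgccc
Irgm1, chr11:48871428-48871457, minus: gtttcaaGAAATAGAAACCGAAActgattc
Irgm2, chr11:58214868-58214947, plus: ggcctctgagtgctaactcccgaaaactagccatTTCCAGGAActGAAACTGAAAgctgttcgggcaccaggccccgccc

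The same pair of motifs, a GAS followed by an ISRE on the gene's strand, was found in 4 of the 6 windows, in both classes. Counted from the start site as 0, the GAS began at -88 in Tgtp1, -81 in Tgtp2, -45 in Igtp and -75 in Irgm2, and the ISRE at -77, -70, -34 and -64 in the same genes. The stretches of Igtp and Irgm2 were the same at 78 of 80 bases (97.5%), and those of Tgtp1 and Tgtp2 at 57 of 80 (71.2%). Irgm1 held 2 overlapping ISRE matches, at -30 and -24, and no GAS. Ifi47 held neither motif in its window, which says only that these letters are not within it. Of 32817 windows of the same length genome-wide, 8.29% held the GAS letters, 3.43% the ISRE letters and 0.451% both.

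**Figure D1:**
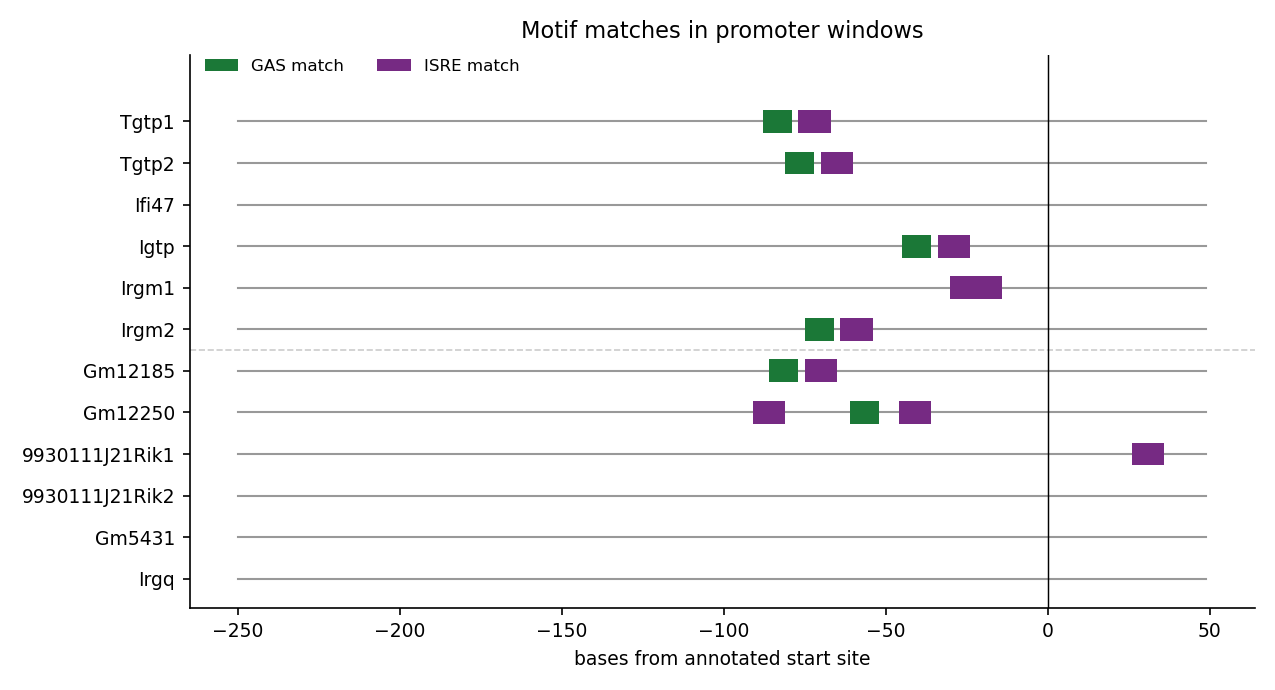
Positions of GAS and ISRE matches along the RefSeq promoter window of each gene, in bases from the annotated start site. Members other than Iigp1 are above the dashed line and other IRG family genes below it. The paired GAS and ISRE of Tgtp1, Tgtp2, Igtp and Irgm2 lie between -88 and the start site.

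Total counts per library were 16912710 to 24784371, and levels below are counts per 1000000 counts (CPM) on TMM-scaled library sizes. Cebpd mRNA was present in all groups, at 29.8 ± 0.591 CPM with sgRNA2, 45.8 ± 0.211 with sgRNA1 and 51.3 ± 3.07 in control after IFN-gamma, and at 9.54 ± 1.46, 13.5 ± 0.172 and 8.11 ± 1.39 CPM in vehicle (SD, n = 2 each). Where the guides cut is not stated in the labels, so the mRNA level does not check the knockout label. Epithelial markers summed to 3404 to 4582 CPM in every library, with all 8 markers present in each. Of 8 macrophage markers 5 were used, and their sum was 33.5 to 35.6 CPM in vehicle with sgRNA2, 7.66 to 9.21 with sgRNA1 and 6.04 to 7.18 in control. After IFN-gamma it was 31.4 to 32.5 CPM with sgRNA2, 14.7 to 16.9 with sgRNA1 and 36.7 to 37.0 in control. Cd68 and Csf1r made up most of it, while the pan-leukocyte gene Ptprc reached at most 0.567 CPM and the myeloid integrin gene Itgam 0.161 CPM in any library. Of 7 fibroblast markers 2 were used (Col1a1 and Pdgfra), and they summed to 32.0 to 32.2, 18.8 to 20.6 and 14.1 to 15.2 CPM in vehicle with sgRNA2, sgRNA1 and control. After IFN-gamma they summed to 22.3 to 26.4, 27.4 to 30.7 and 24.7 to 25.1 CPM with sgRNA2, sgRNA1 and control. T and NK cell markers were not analysed here. Ribosomal protein mRNAs took 13.2% to 13.7%, 11.5% to 11.5% and 8.80% to 8.89% of counts in vehicle with sgRNA2, sgRNA1 and control, and 10.5% to 11.6%, 7.38% to 7.84% and 7.80% to 7.81% after IFN-gamma. Mitochondrial mRNAs took 1.12% to 1.14%, 0.814% to 0.839% and 0.620% to 0.670% in vehicle, and 0.533% to 0.628%, 0.540% to 0.544% and 1.03% to 1.18% after IFN-gamma, with sgRNA2, sgRNA1 and control. Their order in vehicle was that of Igtp and Irgm2, and after IFN-gamma both guides were below control, as for the regulatory members. The part of these shifts in the results below was not tested.

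IFN-gamma raised every member in every line. All 7 were higher in IFN-gamma than in vehicle with sgRNA2, with sgRNA1 and in control, where 30.5%, 31.7% and 36.4% of the 13601 genes tested were higher (edgeR quasi-likelihood test, adjusted p below 0.05). Together the 7 genes took 0.147% to 0.202% of a library's counts after IFN-gamma and 0.000736% to 0.00297% in vehicle. All libraries with IFN-gamma stood above all libraries with vehicle for each of the 7. In RNA from whole cultures, more expressing cells and more RNA per cell cannot be told apart.

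The regulatory members were readable before IFN-gamma in every library, at 20 or more counts. Igtp, which restrains effector activation in mouse cells, had 420.4 and 402 CPM with sgRNA2, 414 and 417 with sgRNA1 and 569 and 570.1 in control after IFN-gamma, against 4.46 and 4.65, 2.47 and 1.87, and 1.19 and 1.05 CPM in vehicle. Its log2 fold change was 6.50 ± 0.07 with sgRNA2, 7.56 ± 0.08 with sgRNA1 and 8.98 ± 0.08 in control (adjusted p at most 3.22e-21). The response was thus smallest with sgRNA2 and largest in control, with a higher vehicle level and a lower IFN-gamma level in both guide lines than in control. Irgm2, another regulatory GTPase, had 238 and 236 CPM with sgRNA2, 257 and 270.3 with sgRNA1 and 378 and 377 in control after IFN-gamma, against 4.15 and 4.08, 2.01 and 2.60, and 1.29 and 1.05 CPM in vehicle. Its log2 fold changes were 5.84 ± 0.07, 6.85 ± 0.08 and 8.33 ± 0.09 with sgRNA2, sgRNA1 and control, in the same order as those of Igtp.

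Irgm1, which guards mouse cells and their lysosomes against effector proteins, was the member least changed by IFN-gamma in each line. It had 165 and 169 CPM with sgRNA2, 166 and 172 with sgRNA1 and 280.1 and 282 in control after IFN-gamma, against 10.7 and 13.3, 10.1 and 10.9, and 4.65 and 5.92 CPM in vehicle. The log2 fold changes were 3.80 ± 0.08 with sgRNA2, 4.01 ± 0.08 with sgRNA1 and 5.73 ± 0.08 in control. Irgm1 thus had the highest vehicle level of the 7 in CPM in every group.

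The effector members were close to absent from vehicle control libraries, with 0 to 3 counts per gene and library, so their induction in control is given from counts with a 95% interval for counting error only. Iigp1, the effector GTPase first studied on Toxoplasma vacuoles, had 12110 counts over both control libraries with IFN-gamma and 3 with vehicle, a ratio of 3866 (1322 to 18747). In CPM, Iigp1 had 208 and 218 with sgRNA2, 222 and 204 with sgRNA1 and 299 and 305 in control after IFN-gamma, against 0.207 and 0.113, 0.0503 and 0.241, and 0.103 and 0.0524 in vehicle. Its sgRNA1 vehicle libraries overlapped with those of both other lines. Iigp1 lies on chromosome 18 (60376027 to 60392634, plus strand). Its fitted log2 fold change was 10.30 ± 0.14 with sgRNA2 and 10.53 ± 0.14 with sgRNA1.

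Tgtp1 had 202 and 205 CPM with sgRNA2, 319.7 and 307 with sgRNA1 and 312 and 325 in control after IFN-gamma, against 4 and 21, 7 and 22, and 1 and 0 counts in vehicle. Tgtp2 had 89.0 and 84.1 CPM with sgRNA2, 149.9 and 152 with sgRNA1 and 109.6 and 109.5 in control after IFN-gamma, against 9 and 16, 11 and 5, and 0 and 0 counts in vehicle. The control ratio of Tgtp1 was 12225 (2194 to 482899), and Tgtp2 was at least 702-fold higher than a floor of 3 counts per library. With sgRNA2 and sgRNA1 the fitted log2 fold changes were 8.22 ± 0.18 and 8.61 ± 0.17 for Tgtp1 and 6.98 ± 0.13 and 8.40 ± 0.13 for Tgtp2.

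Ifi47 was the effector member with the most counts in the vehicle libraries of both guide lines. It had 150.1 and 150.2 CPM with sgRNA2, 129.9 and 119 with sgRNA1 and 131 and 128 in control after IFN-gamma, against 6.84 and 6.58, 5.44 and 5.55, and 0.155 and 0 CPM in vehicle. The induction ratio in control was 1663 (569 to 8065), while with sgRNA2 and sgRNA1 the log2 fold change was 4.48 ± 0.08 and 4.50 ± 0.09, about 22.3-fold and 22.6-fold. Ifi47 was thus an abundant IFN-gamma-induced transcript in all 3 lines, and a measurable one without added IFN-gamma in both guide lines. Of its exon bases, 111 (4.49%) overlap exons of Olfr56 on the same strand. Another overlap, of 106 bases (4.29%), is with the processed pseudogene Gm12188 on the opposite strand. How reads there were counted is not stated.

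**Figure D2:**
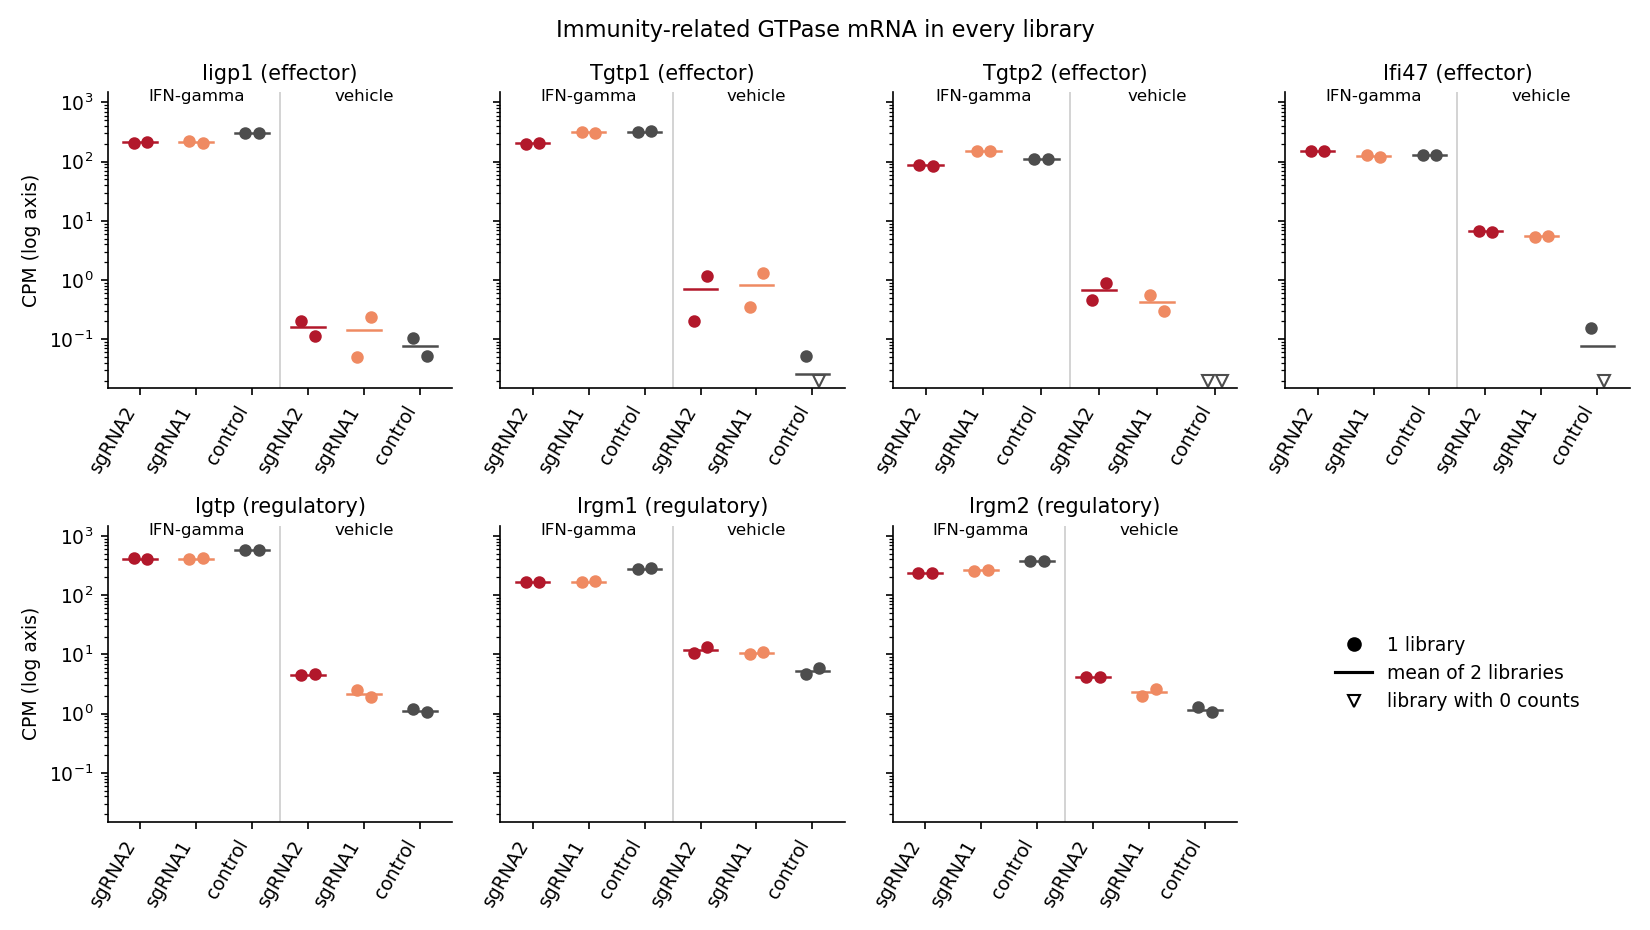
CPM of each member in each of the 12 libraries on a log axis, by guide and treatment, with group means as bars and libraries at 0 counts as open triangles at the bottom. The regulatory members have counts in every vehicle library, and Ifi47 stands at 5.44 to 6.84 CPM in vehicle with both guides against 0.155 and 0 CPM in control.

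Levels of different genes were compared per kilobase of exon, in CPM per kb. After IFN-gamma, Igtp was the highest member in all 3 lines, at 203.4 ± 6.36 with sgRNA2, 206 ± 0.996 with sgRNA1 and 282 ± 0.418 in control (SD, n = 2). In control it was followed by Irgm2 (102 ± 0.177) and Tgtp1 (99.3 ± 2.89). Ifi47 (52.5 ± 0.795) and Iigp1 (51.8 ± 0.668) came next with overlapping libraries, then Irgm1 (48.4 ± 0.286) and Tgtp2 (37.3 ± 0.0181). With sgRNA1, Tgtp1 (97.7 ± 2.88) stood above Irgm2 (71.5 ± 2.48), Tgtp2 and Ifi47 overlapped at 51.4 and 50.3, and Irgm1 was lowest at 29.1 ± 0.816. With sgRNA2, Irgm2 and Tgtp1 overlapped at 64.2 and 63.5, as did Tgtp2 and Irgm1 at the bottom, at 29.5 and 28.7. In vehicle the order was another one. Ifi47 led with sgRNA2 (2.71 ± 0.0751) and sgRNA1 (2.22 ± 0.0332), while in control Irgm1 led (0.910 ± 0.155) and no effector member passed 0.0627 CPM per kb in a library.

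After IFN-gamma, the regulatory members were lower with both guides than in control. With sgRNA2, 6 of 7 members were lower and 1 higher, where 31.6% of tested genes were lower and 30.2% higher. With sgRNA1, 4 of 7 were lower and 1 higher, where 33.3% were lower and 31.6% higher. The comparisons of sgRNA2 and of sgRNA1 share their control libraries. Igtp differed from control by a log2 fold change of -0.47 ± 0.04 with sgRNA2 and -0.45 ± 0.04 with sgRNA1, Irgm1 by -0.75 ± 0.05 and -0.74 ± 0.05, and Irgm2 by -0.67 ± 0.04 and -0.52 ± 0.04 (adjusted p at most 3.73e-08). For each of the 3 genes the 4 guide libraries lay below both control libraries. Against each other, sgRNA2 and sgRNA1 did not pass the test for Igtp (-0.02, 95% interval -0.11 to 0.08) or Irgm1 (-0.02, -0.13 to 0.10). With total count scaling the Igtp difference between guides did pass by edgeR (-0.117, adjusted p = 0.0304). Between the guides, Irgm2 had a log2 fold change of -0.15 for sgRNA2 over sgRNA1 (adjusted p = 0.00702), which was not past the threshold without the second IFN-gamma library of sgRNA1 (-0.12, adjusted p = 0.0805). In that comparison 4 of 7 members passed, where 47.9% of tested genes did.

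The effector members did not move as 1 group after IFN-gamma. Iigp1 was lower than in control with sgRNA2 and sgRNA1 by a log2 fold change of -0.50 ± 0.05 with each (adjusted p = 1.11e-07 and 9.74e-08), which left 70.5% and 70.6% of the control level. Tgtp1 was lower with sgRNA2 (-0.64 ± 0.08, adjusted p = 1.47e-06), at 64.0% of control, and had -0.02 with sgRNA1 (95% interval -0.19 to 0.14, adjusted p = 0.814). By DESeq2 the sgRNA2 difference was of like size, -0.66, and did not pass (adjusted p = 0.461). Tgtp2 was lower with sgRNA2 (-0.34 ± 0.06, adjusted p = 6.01e-05) and higher with sgRNA1 (0.46 ± 0.06, adjusted p = 1.38e-06). Ifi47 was higher with sgRNA2 (0.21 ± 0.06, adjusted p = 0.00323), at 116% of control, and had -0.06 with sgRNA1 (-0.18 to 0.06, adjusted p = 0.364).

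After IFN-gamma the guides differed from each other in 3 of the 4 effector members, where 47.9% of tested genes did. Log2 fold changes of sgRNA2 over sgRNA1 were -0.62 for Tgtp1, -0.80 for Tgtp2 and 0.27 for Ifi47 (adjusted p at most 0.000637 by edgeR, while DESeq2 gave an adjusted p of 0.543 for Tgtp1). Iigp1 had a difference of 0.00 between guides (-0.11 to 0.11). The medians over the 4 effector members were -0.42 with sgRNA2 and -0.04 with sgRNA1 against control, and those over the 3 regulatory members -0.67 and -0.52, beside medians of 0.03 and 0.00 over all tested genes.

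Tgtp2 made up a larger part of the pair's counts with both guides. After IFN-gamma, Tgtp2 took 30.6% and 29.0% of the counts of Tgtp1 and Tgtp2 with sgRNA2, 31.9% and 33.1% with sgRNA1 and 26.0% and 25.2% in control. The exact binomial 95% intervals, which cover counting error only, reached down to 28.0% among guide libraries and up to 27.0% among control libraries. The difference was not tested across samples, and it rests on the single counts of both genes, which are uncertain. Summed as 1 gene, so that the split of shared reads between them does not matter, though reads left uncounted would still be missing, the pair was lower with sgRNA2 than in control (-0.56 ± 0.07, adjusted p = 2.04e-06). With sgRNA1 the sum had 0.12 ± 0.07 (adjusted p = 0.159), and the log2 fold change of sgRNA2 over sgRNA1 was -0.68 (adjusted p = 5.55e-07). This summing was added after the data were seen.

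**Figure D3:**
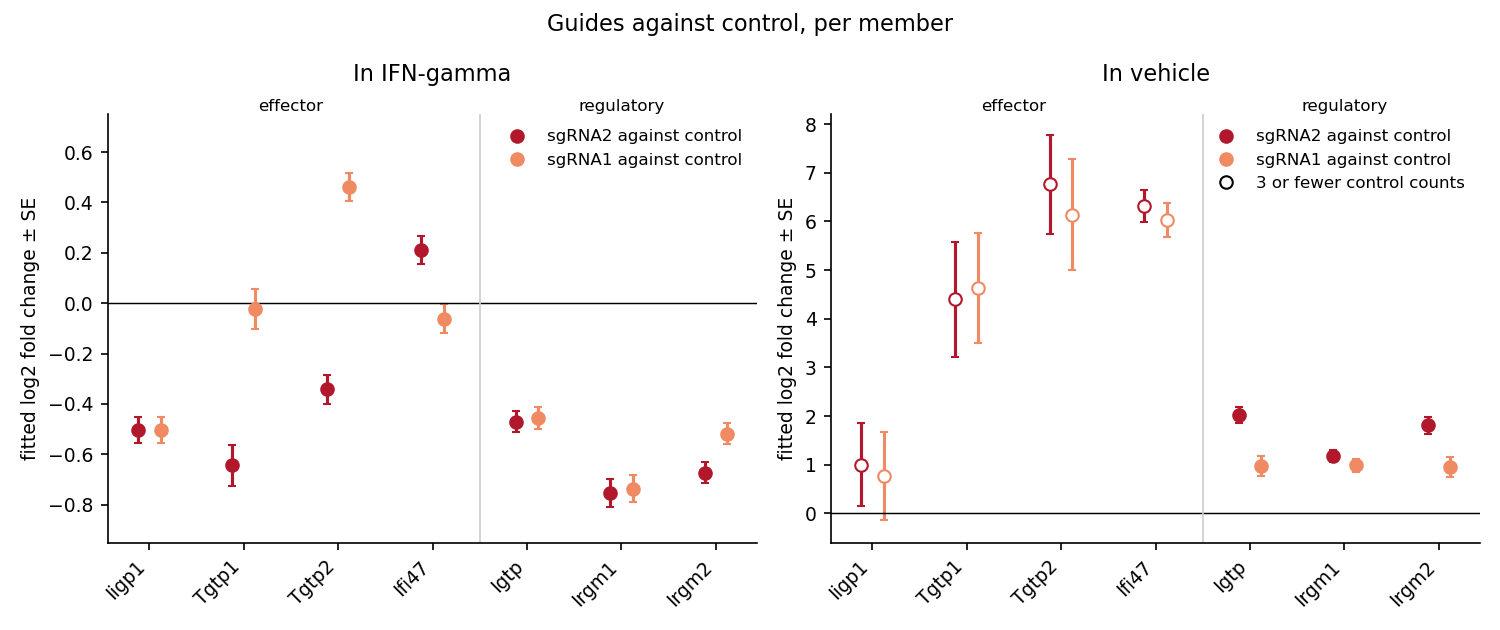
Fitted log2 fold change ± SE of each member, sgRNA2 or sgRNA1 against control, in IFN-gamma (left) and in vehicle (right), with open symbols where control had 3 or fewer counts in all, whose fitted values depend on the prior count. After IFN-gamma the regulatory members and Iigp1 lie between -0.75 and -0.45 with both guides, and Tgtp2 lies at -0.34 with sgRNA2 and 0.46 with sgRNA1. In vehicle all points lie above 0.

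In vehicle, both guide lines had more IRG mRNA than control. With each guide 6 of 7 members were higher, all but Iigp1, where 38.3% of tested genes were higher and 35% lower with sgRNA2, and 25.6% higher and 26.9% lower with sgRNA1. Igtp was higher by a log2 fold change of 2.02 ± 0.17 with sgRNA2 and 0.97 ± 0.20 with sgRNA1 (adjusted p = 4.50e-09 and 0.00086), and without the first sgRNA1 vehicle library the difference with sgRNA1 was 0.74 (adjusted p = 0.0677). Irgm1 was higher by 1.18 ± 0.12 and 0.99 ± 0.13, and Irgm2 by 1.81 ± 0.18 and 0.96 ± 0.20 (adjusted p at most 0.000782). In each of the 3 genes all guide libraries lay above both control libraries. With sgRNA2 rather than sgRNA1, Igtp was higher by 1.05 ± 0.15 and Irgm2 by 0.85 ± 0.15, the 2 of 7 members that differed between guides, where 62.3% of tested genes did. With upper quartile scaling 4 of 7 differed. Igtp and Irgm2 are the overlapping pair of genes.

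Among effector members in vehicle, Ifi47 had 132 and 116 counts with sgRNA2, 108 and 92 with sgRNA1 and 3 and 0 in control. The count ratio to control was 86.1 (29.1 to 420.2) with sgRNA2 and 70.3 (23.7 to 344) with sgRNA1 (fitted adjusted p = 7.53e-12 and 3.52e-10). The fitted log2 fold change of 6.32 with sgRNA2 lay between 5.38 and 10.06 over the alternatives, the highest without the first control vehicle library, which holds all 3 control counts. Tgtp1 had a ratio of 26.0 (4.26 to 1069) and 30.6 (5.07 to 1249), with 21 of 25 sgRNA2 counts in 1 library, and without that library the sgRNA2 difference did not pass (2.69, adjusted p = 0.109). Tgtp2 was at least 4.40-fold higher with sgRNA2 and 2.74-fold higher with sgRNA1 than the floor of 3 counts. Iigp1, with 6, 5 and 3 counts with sgRNA2, sgRNA1 and control, had ratios of 2.08 (0.445 to 12.9) and 1.76 (0.342 to 11.3), so no difference was detectable at this depth.

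Set against the control level after IFN-gamma, the vehicle levels of the guide lines were low for all members. Ifi47 in vehicle stood at 5.17% of that level with sgRNA2, 4.23% with sgRNA1 and 0.0597% in control, and Irgm1 at 4.28%, 3.73% and 1.88%. The other 5 members were at 1.09% or less with either guide. Iigp1 was at 0.0532%, 0.0483% and 0.0258%.

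The IFN-gamma response is the change from vehicle to IFN-gamma on the log2 scale. It was smaller with guides than in control for 6 of 7 members with sgRNA2 and with sgRNA1 (interaction term). The term was called below 0 for 34.7% and 28.2% of tested genes. Those shares include genes that IFN-gamma lowered, where a term below 0 can mean a stronger fall. With the mean of the guides the response was smaller for the same number of members. There the term was called below 0 for 33.4% of tested genes. For Igtp the difference in response was -2.49 ± 0.17 with sgRNA2 and -1.42 ± 0.20 with sgRNA1, for Irgm1 -1.93 ± 0.13 and -1.72 ± 0.14, and for Irgm2 -2.48 ± 0.18 and -1.47 ± 0.21 (adjusted p at most 1.15e-05). These differences add the higher vehicle level to the lower level after IFN-gamma. For the effector members, the response with a guide was divided by that in control from counts. This ratio was 0.0134 (0.00273 to 0.0398) with sgRNA2 and 0.0136 (0.00281 to 0.0405) with sgRNA1 for Ifi47, and 0.0246 (0.000604 to 0.151) and 0.0322 (0.000793 to 0.194) for Tgtp1. It was at most 0.120 and 0.339 for Tgtp2. Without the second sgRNA2 vehicle library the Tgtp1 difference with sgRNA2 did not pass (-3.30, adjusted p = 0.0588). For Iigp1 the ratio was 0.340 (0.0550 to 1.59) with sgRNA2 and 0.402 (0.0624 to 2.07) with sgRNA1, and the difference did not pass (adjusted p = 0.154 and 0.278).

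The balance of effector over regulatory mRNA was described as the ratio of summed CPM per library, with no test. After IFN-gamma it was 0.788 and 0.815 with sgRNA2, 0.982 and 0.908 with sgRNA1 and 0.694 and 0.705 in control. The 3 lines did not overlap, and both guide lines stood above control. The effector sum was 649 and 658 CPM with sgRNA2, 822 and 781 with sgRNA1 and 852 and 867 in control, and the regulatory sum 824 and 807, 837 and 859.6, and 1227 and 1229.8 CPM. Without Tgtp1 and Tgtp2, the ratio was 0.435 and 0.456 with sgRNA2, 0.421 and 0.375 with sgRNA1 and 0.351 and 0.352 in control, so the order of the guides turned and their libraries did not overlap with control. Per kilobase of exon the means were 0.642, 0.771 and 0.557 with sgRNA2, sgRNA1 and control.

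In vehicle the ratio was 0.399 and 0.398 with sgRNA2, 0.438 and 0.484 with sgRNA1 and 0.0435 and 0.00654 in control. The control values rest on 0 to 3 counts per effector gene and library, so their size is uncertain. The guide lines thus held more effector mRNA per regulatory mRNA than control in both treatments, and in vehicle 1 gene made up most of it. Ifi47 was 81.3% of the effector sum with sgRNA2 and 79.5% with sgRNA1. Among regulatory members in vehicle, Irgm1 was 58.1% of the sum with sgRNA2, 70.1% with sgRNA1 and 69.8% in control, while after IFN-gamma Igtp was the largest part at 50.5%, 49.0% and 46.4%. Levels of mRNA do not give the levels of the proteins, which were not measured in these libraries.

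**Figure D4:**
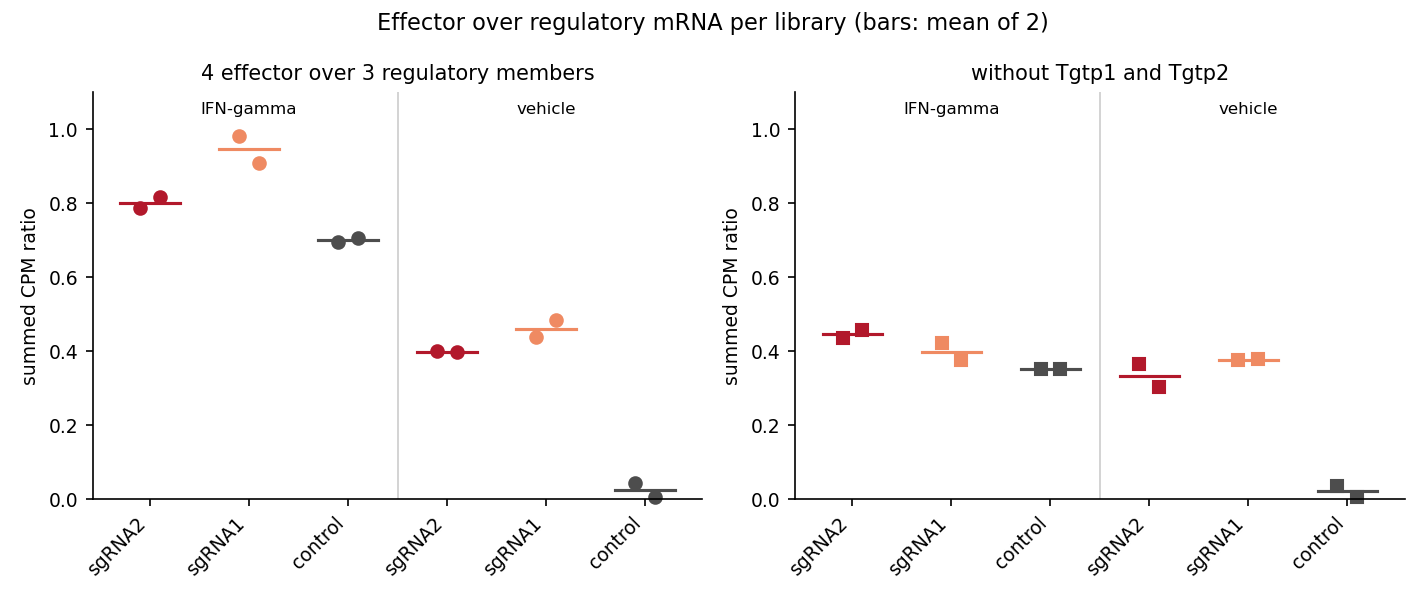
Summed CPM of effector members over that of regulatory members in each library, by guide and treatment, with all 7 members (left) and without Tgtp1 and Tgtp2 (right), and group means as bars. Both guide lines stand above control in each panel and treatment, and sgRNA1 stands above sgRNA2 after IFN-gamma only with Tgtp1 and Tgtp2 included.

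Of 10 other IRG family genes, 6 were in the table and were tested. With IFN-gamma, 5 of 6 were higher than in vehicle with sgRNA2, 6 of 6 with sgRNA1 and 5 of 6 in control. In vehicle, 3 of 6 were higher and 1 lower with each guide against control. After IFN-gamma 3 of 6 were lower with sgRNA2, and 3 were higher and 2 lower with sgRNA1. Over all tested genes, 30.5%, 31.7% and 36.4% were higher with IFN-gamma with sgRNA2, sgRNA1 and control. In vehicle 38.3% were higher and 35% lower with sgRNA2, and 25.6% higher and 26.9% lower with sgRNA1. After IFN-gamma the shares were 30.2% higher and 31.6% lower with sgRNA2, and 31.6% higher and 33.3% lower with sgRNA1, close to the 2 of 6 lower with sgRNA1. The tandem genes 9930111J21Rik1 and 9930111J21Rik2, which stand in the Tgtp cluster, share sequence as Tgtp1 and Tgtp2 do, with 80.4% of the 50-base stretches of 9930111J21Rik1 found in 9930111J21Rik2. The gene 9930111J21Rik2 had 41.5 and 40.7 CPM with sgRNA2, 52.8 and 55.3 with sgRNA1 and 40.7 and 36.2 in control after IFN-gamma, and was higher with sgRNA1 (0.49 ± 0.09, adjusted p = 0.000117). Gm12185, which overlaps Tgtp1 on the same strand over 223 exon bases, was lower with sgRNA2 (-0.40 ± 0.11, adjusted p = 0.0054) and higher with sgRNA1 (0.43 ± 0.11, adjusted p = 0.00214), the directions seen in Tgtp2. The sgRNA2 call of Gm12185 did not pass without the second IFN-gamma library of sgRNA2 (adjusted p = 0.0771) or of control (adjusted p = 0.0787). By contrast 9930111J21Rik1 was lower with both guides (-0.87 ± 0.15 and -0.95 ± 0.15).

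In vehicle, 9930111J21Rik2 had 113 and 122 counts with sgRNA2, 77 and 90 with sgRNA1 and 14 and 9 in control, higher by 3.40 ± 0.24 and 2.93 ± 0.26. Gm12250 lies next to Igtp and is listed as an IRG gene, while GENCODE vM21 annotates it as a processed pseudogene. Whether it encodes a protein was not examined, and the effector sums leave it out. Gm12250 had a GAS at -61 and ISRE letters on the minus strand at -91 and -46. It had 73.8 and 67.7 CPM with sgRNA2, 46.3 and 50.2 with sgRNA1 and 77.8 and 77.4 in control after IFN-gamma. It was lower with sgRNA1 than in control (-0.69 ± 0.06, adjusted p = 3.37e-08) and had -0.14 with sgRNA2 (adjusted p = 0.0678).

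Genes of the same pathway were counted from lists, to be read against the shares of all tested genes. After IFN-gamma these were 31.6% lower and 30.2% higher with sgRNA2, and 33.3% lower and 31.6% higher with sgRNA1. In vehicle 38.3% were higher and 35% lower with sgRNA2, and 25.6% higher and 26.9% lower with sgRNA1. For IFN-gamma against vehicle, 30.5%, 31.7% and 36.4% were higher with sgRNA2, sgRNA1 and control. All 11 guanylate-binding proteins, GTPases that are recruited to vacuoles with IRG proteins, were higher with IFN-gamma in each line. After IFN-gamma 10 of 11 were lower with sgRNA2 (median log2 fold change -0.69) and 11 of 11 with sgRNA1 (-1.30), and in vehicle 10 and 7 of 11 were higher (3.26 and 1.57). Over all tested genes the medians were 0.03 and 0.00 after IFN-gamma and 0.06 and 0.03 in vehicle with sgRNA2 and sgRNA1. The guanylate-binding protein genes that passed had the directions of the regulatory IRG genes in both treatments. Of 10 genes from the IFN-gamma receptor to the promoters, 8 were lower with sgRNA2 and 9 with sgRNA1 after IFN-gamma. Irf1, a factor that binds ISRE, had log2 fold changes of -0.31 and -0.62 with sgRNA2 and sgRNA1 after IFN-gamma.

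In vehicle, 8 of these 10 genes were higher and 1 lower with sgRNA2, where 38.3% of tested genes were higher and 35% lower. With sgRNA1, 6 were higher and 2 lower, where 25.6% were higher and 26.9% lower. Irf1 had 126 and 127 CPM with sgRNA2, 48.8 and 49.7 with sgRNA1 and 22.6 and 26.6 in control, higher by 2.36 ± 0.06 and 1.00 ± 0.06. Socs1, an inhibitor of JAK kinases, had log2 fold changes of -2.09 and -0.66 with sgRNA2 and sgRNA1. Of 10 genes of the ATG8 conjugation system, which directs IRG proteins to vacuoles in mouse cells, 6 were higher and 2 lower with sgRNA2 in vehicle, and 6 higher and 1 lower with sgRNA1. Map1lc3b, which encodes the ATG8 protein LC3B, was higher by 1.38 ± 0.05 and 0.63 ± 0.05. After IFN-gamma 6 were higher and 1 lower with sgRNA2, where 30.2% of tested genes were higher and 31.6% lower. With sgRNA1, 3 were higher and 4 lower, close to the 31.6% and 33.3% of all tested genes. All 3 genes for ubiquitin ligases and an adaptor found at vacuoles were higher with IFN-gamma in each line. Of all tested genes, 30.5%, 31.7% and 36.4% were higher with sgRNA2, sgRNA1 and control. Among the 3, Trim21 was higher by 2.06, 2.93 and 3.43 in the same order.

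Genes with the most similar pattern over the 12 libraries were found by the root mean square difference of gene-centred log2 CPM, among 11944 genes that averaged 1 CPM or more. This is a description over libraries that share their 6 groups. Igtp was nearest to Gbp3 (0.29) and then Irgm2 (0.38), and Irgm2 to Gbp3 (0.35), Gbp7 (0.38) and Igtp (0.38). Irgm1 was nearest to Parp14 (0.33), Gbp9 (0.39) and Il18bp (0.42). Tgtp1 was nearest to Tgtp2 (0.82), but Tgtp2 to Gbp4 (0.56) and then Igtp (0.66). Iigp1 was nearest to Cxcl9 (0.58). Ifi47 was nearest to Icam1 (0.86), Serpina3g (0.92) and Cd74 (0.97), and its nearest member was Irgm2 at 1.41. The members of a class were thus not each other's nearest genes in general, since Tgtp2 lay closer to the regulatory Igtp (0.66) than to Iigp1 (1.27) or Ifi47 (1.48). The log2 CPM used a prior count of 2, and effector members were close to absent from vehicle control libraries. Distances of effector members therefore depend on that prior count, and those of Tgtp1 and Tgtp2 also on their uncertain single counts.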

How the data were processed

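The deposited table holds raw counts of reads for each gene in 12 libraries, as whole numbers without normalization. Per the submitters' processing notes, STAR 2.4.0, HTSeq, DESeq2 1.10 and build mm10 were used, without the step of each. Neither the annotation nor the strand setting is stated. Per the labels' protocols the library kit was Illumina TruSeq RNA, which does not mark strand. Groups come from titles and the treatment entry. Whether both libraries of a group stem from separate cultures is not stated, and p-values thus measure only how far these samples spread, which could be technical. No pair agreed within sampling noise (chi-square per degree of freedom 2.70 to 6.91), and each library was counted.

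Genes were kept with filterByExpr (minimum count 10, minimum total 15), leaving 13601 of 16283. Library sizes were TMM-scaled (factors 0.963 to 1.09). All 12 libraries were fitted with 1 term per group in edgeR 4.0.16 (R 4.3.3) by the quasi-likelihood test, with Benjamini-Hochberg adjustment over all tested genes and a call at adjusted p below 0.05. Residual degrees of freedom were 6. The SE is the fold change over the root of F and restates the test. Its 95% intervals use the test's degrees of freedom. Where an arm had 0 counts, a floor of 3 counts per library gives a bound, and with 1 to 3 counts an exact 95% interval of the ratio, for counting error only. The code was tested on simulated data.

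Exon lengths and positions are from GENCODE vM21 (GRCm38), 1-based, and promoters from RefSeq. The members and lists were chosen with earlier results of these data known, and genes named are the members and listed genes, with the 3 nearest by likeness. Alternatives were DESeq2 1.42.0, other scalings, no filter, a replicate block, a joint knockout group and leaving out each library.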

Additional observations from a re-analysis of the deposited data

Results flagged for a closer look

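The IFN-gamma response differed between guide and control cells, by the interaction term in edgeR's quasi-likelihood test, for 6 of the 7 members. By the same test, 8860 of 13601 tested genes differed with sgRNA2, 7492 with sgRNA1 and 8688 with the mean of the guides. The values below are the response with the guide minus that in control, on the log2 scale. With sgRNA2 the differences were -2.49 for Igtp, -1.93 for Irgm1 and -2.48 for Irgm2, and with sgRNA1 -1.42, -1.72 and -1.47. With the mean of the guides they were -1.96 for Igtp, -1.83 for Irgm1 and -1.98 for Irgm2. For the effector members the fitted values were -5.05 for Tgtp1, -7.10 for Tgtp2 and -6.11 for Ifi47 with sgRNA2, -4.66, -5.68 and -6.09 with sgRNA1, and -4.85, -6.39 and -6.10 with the mean of the guides. Since control vehicle libraries held 0 to 3 counts of these 3 genes, the fitted effector values depend on the prior count and are no bounds. In each of the 6 genes the vehicle level was higher and in the regulatory genes the level after IFN-gamma was lower with both guides.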

How the results depend on the processing

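Over 3 other scalings, no low-count filter, DESeq2, a replicate block and each library left out, the 7 members stayed above vehicle in every line. The regulatory members stayed below control after IFN-gamma with both guides. With a joint knockout group the genes called were 4387 in vehicle, 4361 in IFN-gamma and 2663 for the interaction. With the mean of the guides they were 9207, 8959 and 8688. In IFN-gamma 3 members were called with the joint group against 5. Those no longer called by edgeR were the regulatory Igtp (-0.46, adjusted p = 0.128) and Tgtp1 (-0.30, adjusted p = 0.484). With upper quartile scaling 4 members differed between guides in vehicle, against 2. Without Tgtp1 and Tgtp2 the effector over regulatory ratio averaged 0.445, 0.398 and 0.351 after IFN-gamma with sgRNA2, sgRNA1 and control, and 0.334 and 0.377 in vehicle with sgRNA2 and sgRNA1, and per kilobase of exon 0.642, 0.771, 0.557, 0.587 and 0.758.

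Values that changed sign had not passed the test, before or after. After IFN-gamma, for sgRNA1 against control, these were Tgtp1 with upper quartile (0.0470) or total count scaling (0.152) or a library left out (-0.0535 to 0.0256), and Ifi47 likewise (0.00961, 0.114, and -0.126 to 0.00123). For sgRNA2 against sgRNA1 they were Iigp1 with relative log expression scaling (0.00835), upper quartile (0.0349), no filter (0.00120), DESeq2 (0.00824) or a library left out (-0.0625 to 0.0654), Igtp with upper quartile (0.0195) or a library left out (-0.0561 to 0.0163), and Irgm1 (0.0186, and -0.0451 to 0.0122). In vehicle, with a library left out, they were Iigp1 for sgRNA1 against control (-0.58 to 1.55) and for sgRNA2 against sgRNA1 (-0.55 to 1.58), Tgtp1 for sgRNA2 against sgRNA1 (-1.94 to 0.93), and the Iigp1 interaction of sgRNA1 (-2.06 to 0.0726). The Tgtp1 value of -1.94 passed the test (adjusted p = 0.0322). The cause was not tested.

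The median of all genes moved by up to 0.17 with upper quartile scaling (sgRNA2 against control in vehicle, 62.5% of calls higher against 52.3%) and by up to 0.19 with total count scaling (interaction of sgRNA1, 64.9% against 48.8%). Upper quartile scaling also moved the share of calls that were higher to 38.1% against 51.1% for IFN-gamma with sgRNA2, and to 62.8% against 48.8% for sgRNA1 against control in vehicle. Total count scaling moved it to 65.2% against 51.7% for IFN-gamma with sgRNA1, 63.3% against 48.7% for sgRNA1 against control after IFN-gamma, and 33.0% against 48.8% for sgRNA2 against sgRNA1 after IFN-gamma. The replicate numbers did not pair the samples, with correlations of deviations of -0.0788 to 0.0642 over 15 pairs of groups. With the replicate block as many members passed in every comparison, and the Iigp1 difference between guides after IFN-gamma was 0.000244.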
